A study of Mus musculus with 8 samples.

Results

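Fos, Fosb, Jun, Junb, Jund, Egr1, Egr2, Egr3, Nr4a1 and Nr4a3 encode transcription factors of the immediate early kind. They were taken by symbol from a deposited table of 11723 genes, in which all 10 were listed, and all 10 passed the filter on low values. The table holds RNA levels of CD8 T cells sorted from the peripheral lymph nodes of BALB/c mice, an inbred strain, at 12 days of age. Wild-type mice (WT) gave 4 libraries, and mice without a working interleukin-2 gene (IL-2-KO) gave 4. The cytokine interleukin-2 makes T cells grow and also keeps regulatory T cells alive, and its absence in mice leads to autoimmunity.

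The sort yielded 115, 28.7, 1.3 and 1.3 M cells (M, 1000000) for WT replicates 1 to 4, which pooled 5, 5, 3 and 2 mice. IL-2-KO replicates 1 to 4 came from 26.7, 42.6, 1.1 and 0.4 M cells, with no pooling given. Each genotype therefore had 2 libraries of over 20 M cells and 2 of under 2 M, and this sorted cell number was set against the genotype. The library names in the titles take 2 forms, without a low dash after the first letters (WT replicate 1 and IL-2-KO replicates 1 and 2) or with one (the other 5), and what this form marks is not given. The sample labels give WT and lymph node, while the design text also allows heterozygous controls and spleen as a source. No label gives the time from dissection to freezing, the sequencing run or a date. Levels are CPM, read counts per M of a library size that the authors had scaled with TMM factors, and each mean ± SD is over n = 4 libraries. Differences are on the log2(CPM + 0.5) scale.

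The libraries held 11.9 to 18.4 M counts over the listed genes. All 8 CD8 T cell markers were measured, with a summed level of 6273 to 7059 CPM in WT and 5546 to 6578 in IL-2-KO. Il2 was listed at 5.65 to 6.25 CPM in WT and 4.25 to 8.42 in IL-2-KO, and 1 value per gene does not check the genotype labels. WT replicate 2 and IL-2-KO replicate 3 stood apart in transcripts of other cells. Of 19 myeloid and dendritic cell markers 11 were measured, and all 11 were highest in WT replicate 2 among WT and in IL-2-KO replicate 3 among IL-2-KO. Their summed level was 591 CPM in WT replicate 2 against 141 to 156 in the other WT libraries. In IL-2-KO replicate 3 it was 1496, and IL-2-KO replicates 1, 2 and 4 had 188 to 246. Cd4 followed the same libraries, at 38.6 and 45.5 CPM against 0.461 to 2.48 in the other 6. Of 6 CD4 and regulatory T cell markers, all measured, 4 were highest in WT replicate 2 among WT. As many were highest in IL-2-KO replicate 3 among IL-2-KO. Foxp3 was highest in neither, and Ikzf4 was lowest of its genotype in both, at 3.62 and 5.43 CPM.

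Immediate early genes are transcribed within minutes of a signal, without the need for new protein, because the factors that switch them on are already made. In T cells the signal is usually the antigen receptor, acting through calcium and the MAP kinases ERK and JNK on SRF, its partners and CREB-family factors, and the same genes also respond to handling, enzyme treatment and stress. Fos and Jun proteins pair to form AP-1, EGR proteins bind GC-rich sites through zinc fingers, and NR4A proteins are orphan nuclear receptors whose activity follows their own abundance.

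The promoters show the element that most of these genes share. The core of the cyclic AMP response element, TGACG (or CGTCA on the other strand), a part of the binding site of CREB, ATF and Jun-containing dimers, was searched on both strands in the 250 bases before each RefSeq start site (GRCm38.p6). It was found for 6 of the 8 members with a window (Fos, Fosb, Junb, Egr2, Nr4a1 and Nr4a3), and for 19.8% of the 27025 genes with a window (17.8% of 32851 windows, since some genes have several). For Jun the window holds TGACATCA, a related element found in 2.93% of windows. For Egr2 it also holds a CArG box, the site of SRF, found in 1.47% of windows. The sequences below read 5′ to 3′ on the gene's strand, with these elements in capitals, and they carry both the genes that moved together (Fos, Fosb, Jun, Junb, Nr4a1) and 1 that did not (Egr2).
Fos, chr12:85473770-85473889, plus strand: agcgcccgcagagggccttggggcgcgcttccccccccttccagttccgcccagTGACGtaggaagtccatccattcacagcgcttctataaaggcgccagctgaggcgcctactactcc
Fosb, chr7:19310090-19310119, minus strand: catggagttgcgggTGACGcaagcgcgggg
Jun, chr4:95052223-95052342, minus strand: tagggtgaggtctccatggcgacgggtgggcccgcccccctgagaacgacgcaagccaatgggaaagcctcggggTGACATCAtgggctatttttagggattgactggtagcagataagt
Junb, chr8:84978749-84978868, minus strand: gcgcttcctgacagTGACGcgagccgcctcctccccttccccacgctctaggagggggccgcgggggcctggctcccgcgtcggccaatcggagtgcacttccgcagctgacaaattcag
Nr4a1, chr15:101266726-101266845, plus strand: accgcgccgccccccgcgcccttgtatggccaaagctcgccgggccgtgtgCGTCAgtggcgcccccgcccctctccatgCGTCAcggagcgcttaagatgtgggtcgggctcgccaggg
Egr2, chr10:67537793-67537822, plus strand: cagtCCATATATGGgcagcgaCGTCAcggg

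The stretches of Fos, Jun, Junb and Nr4a1 are the 120 bases before a RefSeq start site, and those of Fosb and Egr2 are 30 bases around the element. The start sites used for Nr4a1 (101266846), Fosb (19310045) and Egr2 (67537869) lie inside the gene spans given below, not at their ends. The full element TGACGTCA (1.55% of windows), the AP-1 site TGANTCA (6.75%) and the NR4A site AAAGGTCA (1.34%) were in no member's window. The EGR site GCGNGGGCG was in the windows of Fosb and Nr4a1 and in 4.70% of all windows, and it can overlap the Sp1 motif GGGCGG (32.7%). A match is a stretch of letters, and no binding was measured here. Fos was the only member with the TATA motif TATAAA, which 12.4% of windows hold. The core element was present both in genes that varied strongly between libraries (Fos, Fosb, Junb, Nr4a1) and in Egr2 and Nr4a3, which varied little. It was absent from the windows of Jun and Jund, which also varied strongly, and the Jund window held none of the motifs searched.

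The first question was whether the immediate early genes differed between the genotypes, and by limma 0 of the 10 did. The adjusted p (Benjamini-Hochberg over 11530 genes) had to be under 0.05, and 19.2% of all genes tested passed (11.1% higher and 8.03% lower in IL-2-KO). At an unadjusted p under 0.05 there were 2 members, Egr2 and Egr3, against 33.3% of all genes. With limma's array weights, which give noisier libraries less influence, 1 member passed, Egr2, and so did 37.8% of all genes. The estimates had no common direction, with 5 above 0 and 5 below. Their median was 0.02 on the log2 scale, beside -0.0097 over all genes. The 4 values of each genotype did not overlap for 1 member, Egr3, while 24.2% of all genes had no overlap. The p-values measure the spread between these samples, and in bulk RNA a smaller share of cells expressing a gene and less RNA per cell cannot be told apart.

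**Figure D1:**
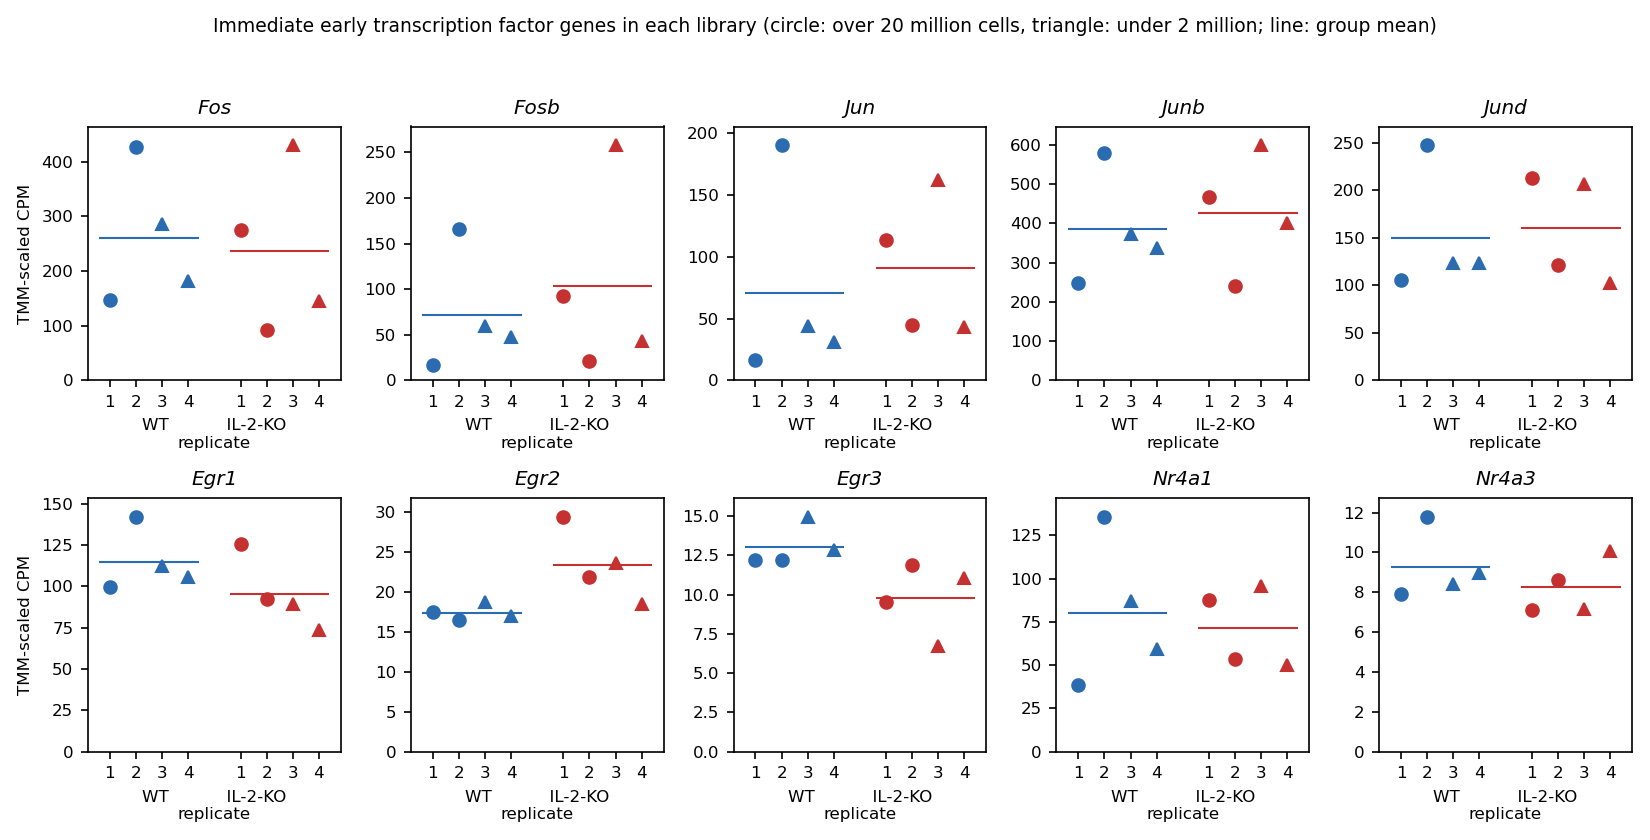
CPM (TMM-scaled) of each of the 10 genes in the 4 WT and the 4 IL-2-KO libraries, 1 panel per gene with its own axis from 0, circles for over 20 M and triangles for under 2 M sorted cells, lines at group means. The points of Fos, Fosb, Jun, Junb, Jund and Nr4a1 spread widely within both genotypes, while Egr3 alone has no overlap between them.

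Fos (chromosome 12, 85473890 to 85477274, GRCm38, 4 exons) encodes the AP-1 subunit that needs a Jun partner to bind DNA. WT replicates 1 to 4 held 147, 426, 287 and 183 CPM of Fos, and IL-2-KO replicates 1 to 4 held 276, 92.3, 430.1 and 146. WT replicate 2 and IL-2-KO replicate 3 were nearly equal and high, IL-2-KO replicate 2 was lowest, and the genotypes overlapped. Group means were 261 ± 125 in WT and 236 ± 151 in IL-2-KO. The log2 difference was -0.26 (SE 0.46, 95% confidence interval -1.29 to 0.77, limma adjusted p = 0.737).

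Fosb (chromosome 7, 19302696 to 19310118, 4 exons) encodes a second Fos-type subunit, and it had the widest spread of the 10. Its levels in WT were 16.6, 166, 59.2 and 47.1 CPM, and in IL-2-KO 92.1, 21.2, 258 and 43.0. The low ends (WT replicate 1 and IL-2-KO replicate 2) and the high ends (WT replicate 2 and IL-2-KO replicate 3) fell in both genotypes. The log2 difference was 0.37 (SE 0.79, interval -1.38 to 2.12, limma adjusted p = 0.781), so a fall or a rise of more than 2-fold lies within the interval. Its share relative to Fos moved too: the ratio of Fosb to Fos CPM was 0.113, 0.389, 0.207 and 0.258 in WT and 0.334, 0.230, 0.599 and 0.296 in IL-2-KO, and these ratios overlapped between the genotypes.

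Jun (chromosome 4, 95049036 to 95052222) encodes the strongly activating partner of Fos. WT libraries held 16.7, 190.4, 44.4 and 31.2 CPM of Jun, and IL-2-KO libraries 114, 45.1, 162 and 43.4. WT replicate 2 held the highest level of all 8 although the other WT libraries were 3 of the 4 lowest together with IL-2-KO replicate 4. The log2 difference was 0.75 (SE 0.68, interval -0.76 to 2.26, limma adjusted p = 0.479), the largest estimate among the members and within the spread between replicates. Single libraries moved this estimate from 0.27 (without WT replicate 1, limma adjusted p = 0.827) to 1.43 (without WT replicate 2, adjusted p = 0.0755). It was 0.40 without IL-2-KO replicate 3, and 1.07 (adjusted p = 0.118) with that library and WT replicate 2 both left out. The ratio of Jun to Fos was 0.114, 0.447, 0.155 and 0.171 in WT and 0.414, 0.489, 0.378 and 0.298 in IL-2-KO, so WT replicate 2 again lay among the IL-2-KO libraries.

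Junb (chromosome 8, 84976909 to 84978748) encodes a Jun protein that pairs with Fos and BATF factors in activated T cells. It stood at 249, 580.2, 373 and 336 CPM in WT and 466, 241, 599 and 401 in IL-2-KO. Jund (chromosome 8, 70697739 to 70700616), which is expressed more steadily than the other Jun genes in most tissues, stood at 106, 247, 123 and 124 CPM in WT and 213, 121, 207 and 103 in IL-2-KO. Both were high in WT replicate 2 and in IL-2-KO replicates 1 and 3, and both overlapped between the genotypes. Log2 differences were 0.14 (interval -0.51 to 0.79, limma adjusted p = 0.776) for Junb and 0.11 (interval -0.55 to 0.78, adjusted p = 0.828) for Jund. Jun, Junb and Jund have a single exon each, as do 1.53% of the genes tested with an exon count. In the GENCODE annotation each overlaps another gene on the opposite strand: Junos for Jun, Prdx2 for Junb and Gm11175 for Jund. The Jund counts were whole numbers in 1 library only, a form that reads shared with another gene give, so its level is uncertain. With the same kind of overlap, Jun counts were whole in 8 of 8 libraries and Junb counts in 7. The source of the Jund fractions was not tested.

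Nr4a1 (chromosome 15, 101253902 to 101274795, 8 exons) encodes Nur77, widely used as a reporter of antigen receptor signalling. WT libraries held 38.8, 136, 87.2 and 59.1 CPM and IL-2-KO libraries 87.5, 53.4, 96.0 and 50.1. WT replicate 2 was highest and WT replicate 1 lowest of all 8, as for Jun, and the genotypes overlapped. The log2 difference was -0.07 (SE 0.35, interval -0.85 to 0.71, limma adjusted p = 0.916). Nr4a3 (chromosome 4, 48045078 to 48086447, 8 exons), its relative NOR1, held 7.90, 11.8, 8.41 and 8.98 CPM in WT and 7.13, 8.62, 7.17 and 10.1 in IL-2-KO. It was low in IL-2-KO replicates 1 and 3, where Nr4a1 was high, and its log2 difference was -0.16 (interval -0.53 to 0.21, limma adjusted p = 0.546).

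Among the zinc finger genes, Egr1, the most responsive to ERK in many cells, stood at 99.5, 142, 113 and 106 CPM in WT and 125, 92.5, 89.5 and 73.7 in IL-2-KO. WT replicate 2 was highest, IL-2-KO replicate 4 lowest, and the genotypes overlapped. The means were 115 ± 18.9 and 95.3 ± 21.7, with a log2 difference of -0.28 (SE 0.16, interval -0.64 to 0.07, limma adjusted p = 0.244).

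Egr2 (chromosome 10, 67534469 to 67542188, 2 exons) is induced by antigen receptor signals and restrains T cell activation. It stood at 17.5, 16.5, 18.8 and 17.0 CPM in WT and 29.5, 21.9, 23.6 and 18.6 in IL-2-KO. IL-2-KO replicate 1 was highest, WT was narrow, and the genotypes overlapped only through IL-2-KO replicate 4 and WT replicate 3. Means were 17.4 ± 0.968 in WT and 23.4 ± 4.57 in IL-2-KO, a fold of 1.32 (log2 0.40, SE 0.14, interval 0.09 to 0.70), which missed the threshold (limma adjusted p = 0.0695). It passed without IL-2-KO replicate 4 (limma adjusted p = 0.0229, with 19.1% of all genes passing) and with array weights (0.0249), and over all alternatives the adjusted p ran from 0.0229 to 0.528.

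Egr3 (chromosome 14, 70077317 to 70082613, 2 exons) acts with Egr2 in T cells. It stood at 12.2, 12.2, 15.0 and 12.8 CPM in WT and 9.51, 11.9, 6.72 and 11.1 in IL-2-KO. Every IL-2-KO library lay under every WT library, with IL-2-KO replicate 3 lowest and IL-2-KO replicate 2 close to WT. The gap between IL-2-KO replicate 2 and the lowest WT library was smaller than the error from read numbers alone. For single Egr3 values that error was 6.20% to 8.94%. Means were 13.1 ± 1.31 and 9.79 ± 2.27 (log2 -0.42, SE 0.17, interval -0.81 to -0.04), and the difference did not pass (limma adjusted p = 0.118).

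Egr2 and Egr3 thus pointed in opposite directions, each short of the threshold. The ratio of Egr2 to Egr3 CPM, looked at after these values were seen, was 1.43, 1.35, 1.25 and 1.32 in WT and 3.10, 1.85, 3.51 and 1.68 in IL-2-KO. The lowest IL-2-KO ratio lay above the highest WT ratio, and the ratio was highest in IL-2-KO replicates 1 and 3. This separation follows from the single values, since Egr3 did not overlap and Egr2 overlapped only narrowly, so it is no further result. The ratio is given without a test.

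**Figure D2:**
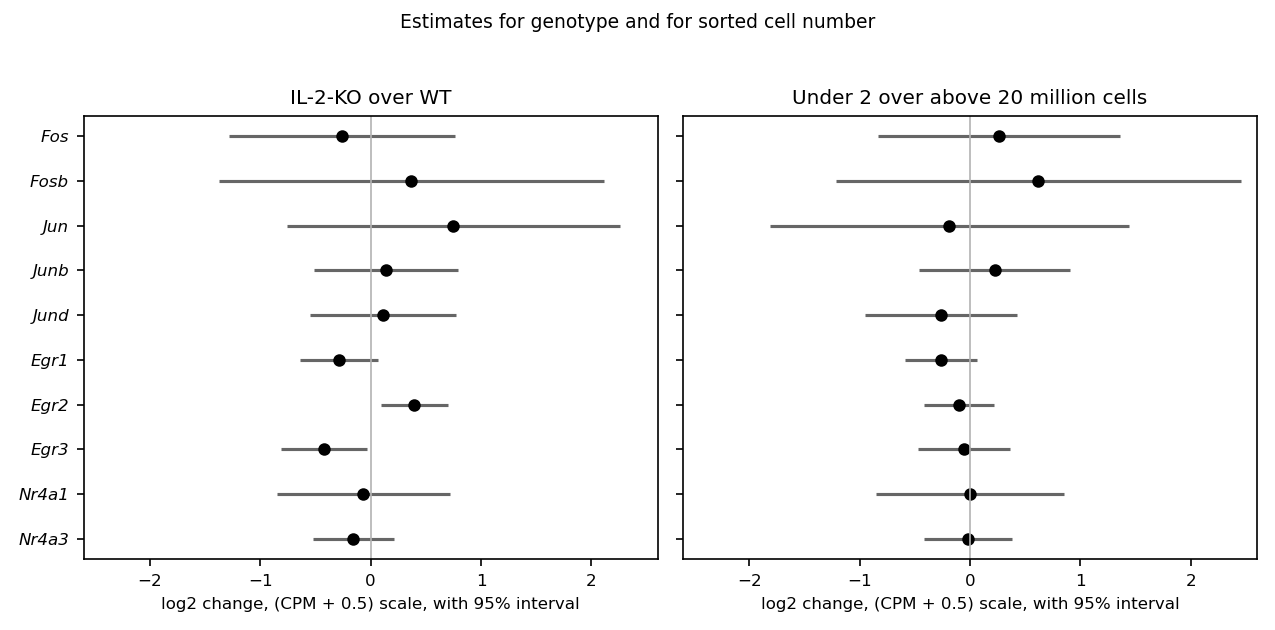
Log2 difference with its 95% confidence interval (limma) for each of the 10 genes, for IL-2-KO over WT and for libraries of under 2 M over those of over 20 M sorted cells. The intervals of Fosb and Jun are the widest, and for the genotype only those of Egr2 and Egr3 leave out 0 before adjustment.

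The second question was whether the sorted cell number separated the libraries in these genes. With genotype and cell number class in 1 limma model, 0 of the 10 members passed for the class (0% of all genes passed, and each member's adjusted p was 0.999). At an unadjusted p under 0.05 there were 0 members and 1.82% of all genes. Array weights called 2 genes, 0 of them members. The classes did not overlap for 0 members, against 0.833% of all genes. Fosb had the largest class estimate at 0.62 (interval -1.21 to 2.45), from means of 73.9 CPM in the large and 102 in the small libraries. Egr1 had -0.26 (interval -0.59 to 0.06), Fos 0.26 (interval -0.84 to 1.35), Jun -0.19 (interval -1.81 to 1.44) and Nr4a1 0.00 (interval -0.85 to 0.85). The median class estimate of the members was -0.04, beside 0.0033 over all genes. With the form of the library name as a covariate in place of the class, 0 members passed for the genotype. The genotype estimate of Fosb was then 0.78 and that of Junb 0.30, that of Fos -0.066, and that of Nr4a1 turned to 0.061 (limma adjusted p from 0.456 to 0.940 for these 4).

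The genotype difference itself was then compared between the 2 classes by the interaction term. Again 0 of the 10 members passed, with 0% of all genes, and at an unadjusted p under 0.05 there were 0 members and 1.67% of all genes. Fosb had the largest interaction estimate, 1.24, with an interval from -2.58 to 5.06 on the log2 scale. With 2 libraries in each genotype and class these intervals hold large differences of either sign, so the values do not show that the classes act alike.

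Most of these genes spread widely between libraries of 1 genotype. On the log2 scale the SD within genotypes was 1.44 for Fosb, 1.24 for Jun, 0.84 for Fos, 0.64 for Nr4a1, 0.54 for Jund and 0.53 for Junb. These 6 lay above 95% of all genes tested, Fosb at the 99.8th percentile. The other 4 had 0.27 (Egr1), 0.26 (Egr3), 0.23 (Nr4a3) and 0.20 (Egr2), and lay below the 80th percentile. The median over the 10 was 0.53, beside 0.17 over all genes. The division into 6 and 4 was made after these values were seen, so it is a description.

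**Figure D3:**
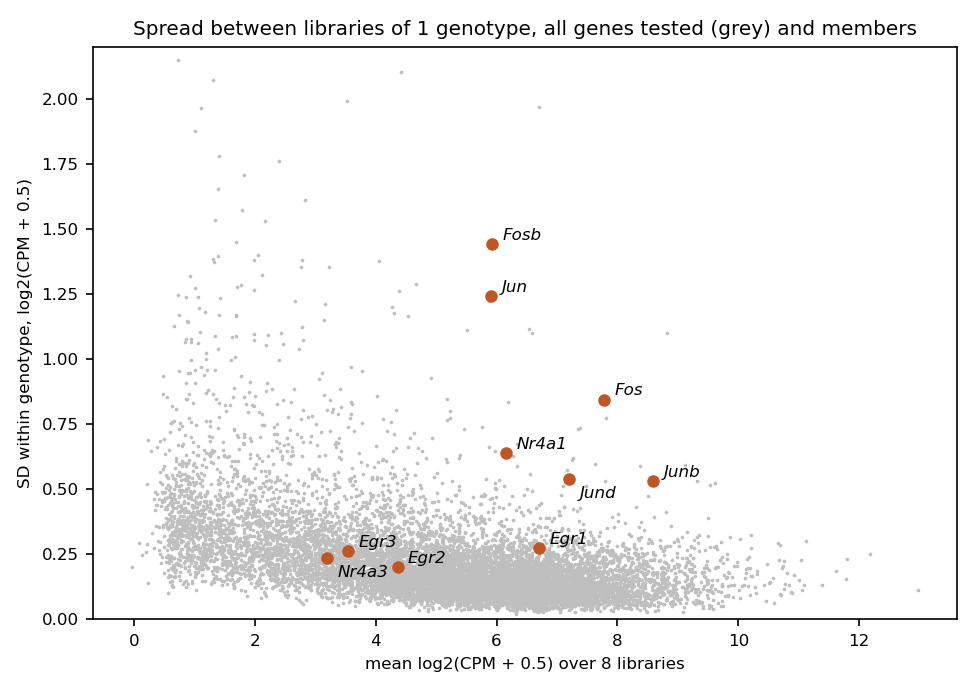
Within-genotype SD (vertical) against the mean (horizontal), both of log2(CPM + 0.5) values over the 8 libraries, for all genes tested (grey points, with 11 genes beyond the plotted limit of 2.2) and for the 10 members (labelled points). Fosb at 1.44 and Jun at 1.24 lie far above the mass of genes of like mean level, and Egr2 at 0.20 lies within it.

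The 6 genes moved by library in nearly the same order. WT replicate 2 was the highest WT library and WT replicate 1 the lowest for 6 of 6. IL-2-KO replicate 3 was the highest IL-2-KO library for 5 of 6, the exception being Jund, for which replicate 1 was. The lowest IL-2-KO library was replicate 2 for 3 genes and replicate 4 for 3. Over all 10 members WT replicate 2 was the highest WT library for 8 and WT replicate 1 the lowest for 9. Egr1 and Nr4a3 thus shared the WT part of the order, and IL-2-KO replicate 3 was highest in neither. Averaged over the 6 genes as log2 levels centred on each gene's mean, WT replicates 1 to 4 stood at -1.03, 1.06, -0.0087 and -0.37. IL-2-KO replicates 1 to 4 stood at 0.50, -0.75, 1.01 and -0.41. The highest and the lowest library thus both belonged to WT and to the class of over 20 M cells.

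**Figure D4:**
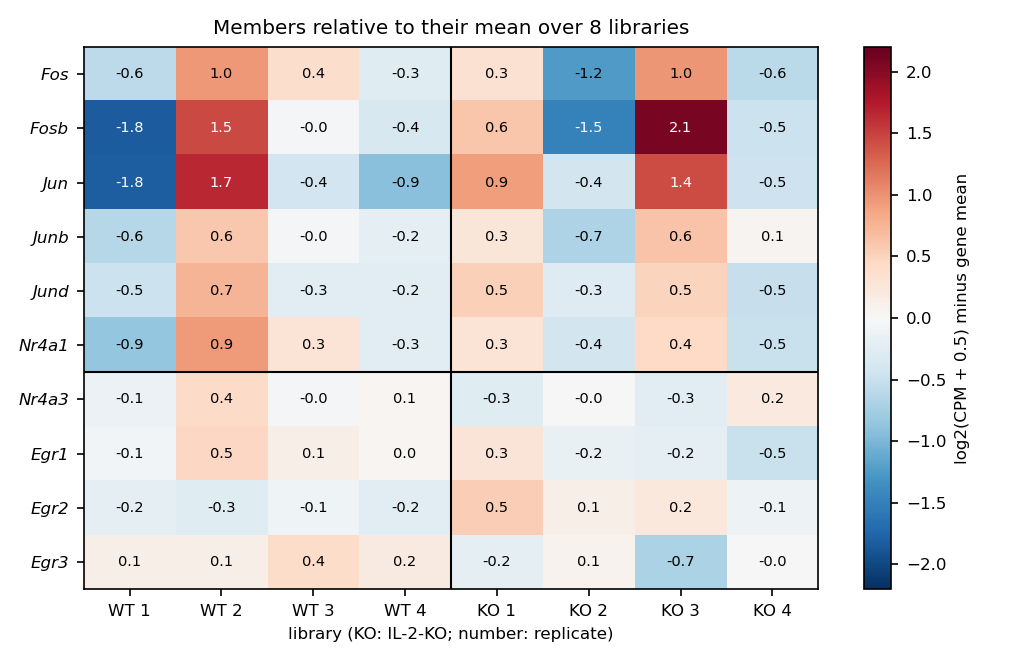
Log2 level of each of the 10 genes (rows) in each of the 8 libraries (columns), centred on the gene's mean over the libraries, on a colour scale from low to high. WT replicate 2 and IL-2-KO replicate 3 are high and WT replicate 1 is low across the AP-1 genes and Nr4a1. Egr1 and Nr4a3 share the WT part of this order but are not high in IL-2-KO replicate 3. In Egr2 and Egr3 WT replicate 2 is not the highest WT library.

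Pairs of libraries that share both genotype and cell number class were compared next, since neither variable differs within them. WT replicate 2 exceeded WT replicate 1 in the 6 genes by factors of 2.33 (Junb) to 11.4 (Jun), and both came from 5 pooled mice. They differed in sorted cell number (115 and 28.7 M) and in the form of the library name. IL-2-KO replicate 1 exceeded IL-2-KO replicate 2 by factors of 1.64 (Nr4a1) to 4.34 (Fosb). IL-2-KO replicate 3 exceeded IL-2-KO replicate 4 by factors of 1.49 (Junb) to 5.99 (Fosb). The remaining pair, WT replicates 3 and 4 of 1.3 M cells each, differed least, with ratios of 0.996 (Jund) to 1.57 (Fos). In Egr1, Egr2, Egr3 and Nr4a3 the ratios of all 4 pairs lay between 0.607 and 1.49.

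The level of myeloid and dendritic cell transcripts moved with part of this pattern. WT replicate 2, with the highest marker sum among WT, was also the highest WT library for 6 of the 6 genes. IL-2-KO replicate 3, with the highest sum among IL-2-KO, was the highest IL-2-KO library for 5 of them. IL-2-KO replicates 1 and 2 had marker sums of 246 and 226 CPM, and Fos levels that differed 2.98-fold. WT replicates 1, 3 and 4 had marker sums of 156, 141 and 147 CPM. Without WT replicate 2 the highest WT level was still 1.17 (Jund) to 3.56 (Fosb) times the lowest. Without IL-2-KO replicate 3 the highest IL-2-KO level was 1.75 (Nr4a1) to 4.34 (Fosb) times the lowest. Without both libraries 0 members passed for the genotype, with estimates from -0.35 (Fos) to 1.07 (Jun). Of the other marker lists, B cell (3 of 8 measured) summed to 15.7 to 26.2 CPM in WT and 12.3 to 36.2 in IL-2-KO. In each genotype the library with the top myeloid sum also had the top B cell sum. Among WT this was 26.2 CPM against 15.7 to 22.1, with 2 of the 3 B cell markers highest there. Among IL-2-KO it was 36.2 CPM against 12.3 to 16.4, with all 3 highest there. Red blood cell markers (4 of 6) summed to 14.7 to 94.9 CPM in WT and 9.76 to 43.5 in IL-2-KO. Natural killer cell markers (4 of 7) summed to 108 to 158 CPM in WT and 321 to 588 in IL-2-KO. Most of that sum was Eomes (131 ± 20.6 in WT and 292 ± 75.3 in IL-2-KO) and Gzma (3.30 ± 1.49 and 129 ± 38.7). Klrb1c, at 1.19 ± 1.09 and 1.84 ± 0.538 CPM, did not pass for the genotype (limma adjusted p = 0.268), and Klre1 did (0.0352). The sum thus rests mainly on Eomes and Gzma and does not give the share of natural killer cells. The part of other cells in the levels of the 6 genes was not tested.

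The precision of single values differed between the members. The recovered counts behind the values ran from 278 to 4791 for Fosb, 279 to 3021 for Jun and 1532 to 7998 for Fos. The lowest count of any member was 106 for Nr4a3, for which counting error alone is 9.70%, followed by 125 for Egr3 (8.94%) and 196 for Egr2 (7.14%). Counting error of this kind leaves out PCR duplicates.

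Per kilobase of exon, the WT levels had a wide order. Junb stood at 167 ± 60.9 CPM per kilobase, Fos at 111 ± 53.3 and Jund at 90.0 ± 39.2, and the ranges of these neighbours overlapped. Egr1 (25.6 ± 4.21), Nr4a1 (22.9 ± 12.0), Jun (22.2 ± 25.3) and Fosb (11.6 ± 10.4) followed, again with overlapping neighbours. Egr2 (5.13 ± 0.285) overlapped Fosb, and Egr3 (2.96 ± 0.296) and Nr4a3 (1.55 ± 0.291) each lay under the gene before it in every WT library. The step from Jund to Egr1 also had no overlap with the exonic lengths used here. WT CD8 T cells thus held far more Junb and Fos RNA than Egr2, Egr3 or Nr4a3 RNA. The exonic length used for Jund, 1668 bases, is shorter than its RefSeq span of 2878 bases, which raises its value per kilobase. Those of Egr1 (4484) and Junb (2301) are longer than their RefSeq spans (3750 and 1840), which lowers their values. The lack of overlap between Jund and Egr1 therefore depends on the lengths used.

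Likeness between members was described by each one's correlation with the mean of the other 9 over the 8 libraries. Pearson's r was 0.96 for Nr4a1, 0.92 for Fosb, Junb and Jund, 0.91 for Jun and 0.88 for Fos, against 0.51 for Egr1, 0.21 for Egr2, 0.07 for Nr4a3 and -0.49 for Egr3. These points share their libraries and scaling, so r is a description. Among 9060 other genes with a mean of at least 10 CPM, those most like the mean of the 10 were Hexim1 (r = 0.98), Ier2, Phlda1 and Myo3a (0.97 each) and Ing2 (0.96). Hexim1, which encodes an inhibitor of the elongation kinase P-TEFb, stood at 66.1, 133, 92.5 and 76.3 CPM in WT and 117, 75.4, 132 and 82.9 in IL-2-KO. WT replicate 2 and IL-2-KO replicate 3 were its highest libraries and WT replicate 1 its lowest, in a gene picked for this correlation. Myo3a counts were whole in 0 libraries, so reads may be shared with other genes. With genotype means subtracted the closest were Srsf5 and Hexim1 (r = 1.00 each), Poln (0.99), Fnbp4 and Slc26a10 (0.98 each).

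The other AP-1 family genes include the BATF, JDP and small MAF factors. Of 10 named in that list, 6 were measured, 2 rose and 4 did not pass, beside 11.1% risen and 8.03% fallen over all genes tested. Batf, the AP-1 partner of IRF4 in activated lymphocytes, stood at 32.7, 40.2, 29.9 and 30.4 CPM in WT and 63.5, 56.6, 85.0 and 50.6 in IL-2-KO. It rose 1.88-fold without overlap (limma adjusted p = 0.00313). Jdp2, a repressive Jun partner, rose 2.57-fold, from 2.26 ± 0.742 to 6.58 ± 1.92 CPM (limma adjusted p = 0.00409). Fosl2 stood at 21.6 ± 3.92 and 16.5 ± 3.25 CPM (limma adjusted p = 0.131). Fosl1, Batf2, Batf3 and Atf3 were not analysed here.

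Of the other EGR and NR4A genes and the EGR co-repressors 3 of 4 were measured, and 1 rose, beside 11.1% of all genes tested. Nab1, a co-repressor that binds EGR proteins, rose 1.36-fold, from 145 ± 4.51 to 199.6 ± 30.0 CPM (limma adjusted p = 0.0117). Nab2, the other co-repressor, stood at 68.7 ± 7.94 and 58.6 ± 11.2 CPM (limma adjusted p = 0.267). Nr4a2, the third NR4A receptor, held 4.85, 39.4, 16.5 and 9.89 CPM in WT and 21.9, 10.3, 77.4 and 25.2 in IL-2-KO (limma adjusted p = 0.365). It was high in WT replicate 2 and IL-2-KO replicate 3 and low in WT replicate 1 and IL-2-KO replicate 2, as Fos was.

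Upstream of the members, the list of ERK and JNK pathway kinases, SRF and CREB factors had 21 of 21 measured, 0 risen and 1 fallen, with a median log2 difference of -0.05. Map2k7, a kinase that activates JNK, fell by 0.33 on the log2 scale, from 152 ± 5.24 to 121 ± 4.38 CPM (limma adjusted p = 0.00478). Srf stood at 120.3 ± 7.82 and 107 ± 12.1 CPM and Creb1 at 287 ± 13.8 and 243 ± 36.6 (limma adjusted p = 0.212 and 0.121). Among MAP kinase phosphatases and feedback inhibitors, which switch the kinases off, 1 of 10 rose and 2 fell. For both lists the shares over all genes tested were 11.1% risen and 8.03% fallen. Dusp6, an ERK phosphatase, fell by 0.66 (104 ± 4.31 to 67.0 ± 15.3 CPM, limma adjusted p = 0.0104), and Dusp2 fell by 1.03 (adjusted p = 0.00139). Dusp4 rose 2.04-fold, from 16.2 ± 7.09 to 31.6 ± 3.17 CPM (limma adjusted p = 0.0183).

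The 28 other fast-response genes, all measured, had their highest and lowest values largely in the same libraries. Beside 11.1% risen and 8.03% fallen over all genes tested, 2 of the 28 rose, 0 fell and 26 did not pass. The 28 had a median log2 difference of 0.04. Their median within-genotype SD was 0.48, and 14 of the 28 lay above the 95th percentile of all genes. For 26 of 28 the highest WT library was replicate 2, and for 21 the highest IL-2-KO library was replicate 3. Tnfaip3, an inhibitor of NF-κB signalling, stood at 142, 1133, 587 and 310.1 CPM in WT and 391, 228, 908 and 703 in IL-2-KO. The 2 that rose were Socs3, a feedback inhibitor of cytokine signalling (2.57-fold, 54.0 ± 21.4 to 135 ± 33.1 CPM, limma adjusted p = 0.00354), and Rgs1, a regulator of G protein signalling (2.45-fold, 31.4 ± 8.13 to 79.7 ± 29.4 CPM, adjusted p = 0.00726).

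Later targets of antigen receptor signalling came next. Of 15 genes induced through NFAT, EGR or NR4A factors, all measured, 9 rose and 0 fell, with a median log2 difference of 1.21. Over all genes tested 11.1% rose and 8.03% fell. This list, like the others, was chosen with earlier results of these data known, so its count is a description. The median within-genotype SD of the 15 was 0.43, and for 10 of 15 WT replicate 2 was the highest WT library. Those with the smallest adjusted p were Irf4, the partner of BATF (2.88-fold), and the inhibitory receptor genes Lag3 (11.8-fold) and Pdcd1 (6.56-fold), at limma adjusted p = 5.41e-05, 0.000128 and 0.000231. Nfatc1, itself induced by NFAT, stood at 198 ± 9.15 and 198 ± 13.0 CPM (limma adjusted p = 0.992). Of 12 heat shock and dissociation stress genes 9 were tested, and 4 rose, 0 fell and 5 did not pass. Hsp90aa1, a chaperone gene, rose 1.39-fold (179 ± 20.8 to 248 ± 22.6 CPM, limma adjusted p = 0.00755). The summed level of this list was 3477 to 3635 CPM in WT and 4173 to 4770 in IL-2-KO, so it separated the genotypes, which the sums of the 10 members (711 to 1929 and 709 to 1879) did not. With the level of this list as a covariate, added after seeing the data, 3 members (Fos, Fosb and Junb) and 2.8% of all genes passed for the genotype, and the covariate and the genotype cannot be told apart. In none of these lists did a gene pass for the cell number class by limma.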

How the data were processed

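A stranded kit was used to make sequencing libraries of the sorted cells' total RNA, per the labels. The values are a signal on a linear scale, deposited by the authors as CPM after TMM scaling, with column sums between 988292 and 1022950. According to the submitters' processing notes the tools were featureCounts, limma 3.34.9 and R 3.4.3, and GRCm38 and mm10 are given as builds, with no step named for any. The aligner and the strand setting of the counting are not given in the sources used here. Without strand, reads of a gene and its antisense partner cannot be told apart.

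The step between low values gave the counts behind 1 CPM (11.9 to 18.6). Whole hundredths of a read made up 100% of low values (tolerance 0.05 of a hundredth), but whole reads only 54.6% to 65.0% (tolerance 0.001 read), so no count test was run. The design had expected plain CPM. The test written for it was applied unchanged to the scaled signal. All 8 columns were matched to samples by title, and no value column was left over.

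Entrez identifiers were matched to RefSeq symbols (GRCm38.p6, 11651 matched, 72 not). Exons came from GENCODE M21 and promoter sequences from RefSeq, which had a window for 8 of the 10 members. Values were taken as log2(value + 0.5). The filter asked for a value of 1 or more in 4 or more libraries, which 11530 genes met. limma 3.58.1 in R 4.3.3 (trend, Benjamini-Hochberg over all genes tested, threshold 0.05) was fitted for genotype, for genotype with cell number class, and for their interaction. These steps were tested on simulated data, drawn independently for each gene and library. That test does not cover genes that move together by library, as 6 of the members did.

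The members and lists were chosen with earlier results of these data known. Named beside the members were genes from, per list, the up to 3 with the smallest adjusted p for genotype and for class, and the 5 non-members most correlated with the members. Tnfaip3 was added after its values were seen. Alternatives were other pseudocounts, filters, scalings, array weights, the replicate block, covariates and subsets of libraries. Same-numbered samples of the 2 genotypes did not deviate together, so the numbers were not used as pairs.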

Additional observations from a re-analysis of the deposited data

Results flagged for a closer look

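Within the 4 WT libraries, replicate 2 lay far from the others in 2 members. Jun was 190.4 CPM there (190.385) against 16.7 to 44.4 in the other WT libraries, and Jund was 247 CPM (247.484) against 106 to 124. In both cases the gap to the next library, divided by the range of the group, exceeded Dixon's 95% critical value. In all, 104 groups of 4 libraries were examined, and 2 had such a library. Chance alone gives about 1 in 20. Myeloid and dendritic cell markers were also highest in WT replicate 2 among WT, and their part in these levels was not tested.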

How the results depend on the processing

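The count of genes passing for the genotype was 2211. It was 4359 with array weights, 384 in the large and 441 in the small libraries alone, and 1285 to 2205 with 1 library left out, the lowest without WT replicate 3 and then WT replicate 4 (1351). The replicate block gave 1397 genes and called 0 members. Same-numbered samples correlated at 0.084, -0.53, -0.40 and 0.39, so the numbers do not pair them. Members called for the genotype numbered 0, but 1 (Egr2) with array weights and 0 to 1 with 1 library left out. With the level of the heat shock list as a covariate, chosen after seeing the data, 323 genes (2.8%) and 3 members passed (Fos, Fosb and Junb, at limma adjusted p = 0.0400, 0.0244 and 0.0334). That covariate was higher in every IL-2-KO than in every WT library, so it and the genotype cannot be told apart. Array weights gave 2 genes for the class.

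Of 450 alternative estimates of single members 378 kept their direction and call and 69 turned direction, and the cause was not tested. For the genotype (log2) the turned values were Fos 0.13 in the small libraries; Fosb -0.40 and Junb -0.16 with array weights; Fosb -0.25, Junb -0.18 and Jund -0.0098 in the large libraries. With the fast-response covariate, also added after seeing the data, Fosb gave -0.14, Junb -0.047 and Jund -0.055, and with the heat shock covariate Fosb -3.20, Jun -1.76, Junb -1.18 and Jund -0.74. Nr4a1 gave 0.061 with the form of the library name as a covariate, and with IL-2-KO replicate 3 and WT replicate 2 left out Nr4a1 gave 0.075 and Nr4a3 0.016. With 1 library left out the ranges were -0.63 to 0.11 (Fos), -0.26 to 0.93 (Fosb), -0.046 to 0.39 (Junb), -0.044 to 0.38 (Jund) and -0.36 to 0.23 (Nr4a1), and with no turn 0.27 to 1.43 (Jun), -0.42 to -0.17 (Egr1), 0.28 to 0.50 (Egr2), -0.52 to -0.26 (Egr3) and -0.25 to -0.042 (Nr4a3).

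For the class, WT libraries alone gave Fos -0.13, Fosb -0.0020, Junb -0.10, Egr2 0.070, Egr3 0.18 and Nr4a1 -0.018, and IL-2-KO libraries alone Jun 0.23 and Nr4a3 0.11. Array weights gave Jun 0.74, Jund 0.092, Egr1 0.0072, Egr3 0.094 and Nr4a3 0.12, and log10 cell number Jun 0.027 and Nr4a3 0.032. With IL-2-KO replicate 3 and WT replicate 2 left out the values were Jun 0.21, Egr3 0.12 and Nr4a3 0.23. Nr4a1 gave -0.0010 with a pseudocount of 2, -0.0081 with columns brought to 1000000, -0.0079 after shifting medians and -0.0046 after quantile normalization. With 1 library left out the ranges were -0.13 to 0.64 (Fos), -0.018 to 1.40 (Fosb), -0.80 to 0.59 (Jun), -0.033 to 0.53 (Junb), -0.49 to 0.0072 (Jund), -0.16 to 0.016 (Egr2), -0.14 to 0.13 (Egr3), -0.35 to 0.36 (Nr4a1) and -0.14 to 0.12 (Nr4a3). Depth limits Nr4a3, Egr3 and Egr2 most.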

Other observations

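The inducible heat shock genes Hspa1a and Hspa1b, which respond to tissue dissociation, were at 0.349, 2.29, 0.480 and 0.291 CPM and at 0.529, 4.65, 0.969 and 0.261 CPM in WT replicates 1 to 4. In IL-2-KO replicates 1 to 4 they were at 1.22, 0.482, 1.83 and 0.577 CPM and at 1.42, 0.904, 2.85 and 0.913 CPM. Both were highest in WT replicate 2 and next in IL-2-KO replicate 3, at levels too low for the test. Maff, a small partner of AP-1-type factors, had the same high libraries, at 27.6 CPM in WT replicate 2 and 21.9 in IL-2-KO replicate 3 against 2.28 to 6.05 in the other 6. Gadd45b, a stress-induced gene, stood at 7.72, 69.2, 12.6 and 9.89 CPM in WT and 51.2, 20.01, 107 and 19.8 in IL-2-KO. These genes were picked after their values were seen.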
